A study of Mus musculus with 30 samples.

Results

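The glucocorticoid genes described here are 9 genes of the steroid pathway that matures the fetus late in gestation: the receptors Nr3c1 and Nr3c2, the enzymes Hsd11b1 and Hsd11b2, the plasma carrier Serpina6, the hormone gene Crh, and the response genes Fkbp5, Tsc22d3 and Per1. They were chosen by the gene symbol of the array platform, and where a gene had several probe sets, the one brightest on average across the 30 arrays stood for it. That gave 9 genes, carried by 19 probe sets, of 18193 genes and 45101 probe sets in all. The gene IDs of the platform and of RefSeq matched for all 9.

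Pregnant CD-1 mice were gavaged daily with the potassium salt of perfluorooctane sulfonate (PFOS), a persistent fluorinated surfactant, from gestation day 1 to 17, and the fetuses were taken on day 18. Lung and liver were profiled on Affymetrix arrays at 0, 5 and 10 mg/kg/day, with 5 litters in each of the 6 groups. All groups, the 0 mg/kg/day controls included, received the 0.5% Tween 20 vehicle. Each array held RNA pooled from 3 fetuses of 1 litter, of unstated sex, and the litter is the replicate. Values are log2 levels after robust multi-array average (RMA) processing, in which a difference of 1 is a doubling. Arrays give no read depth, and the 5 litters per group limit the precision.

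In blood, glucocorticoids travel largely on corticosteroid-binding globulin, the product of Serpina6. Inside cells, 11-beta-hydroxysteroid dehydrogenase 1 (Hsd11b1) regenerates the active steroid from its inert keto form, and the type 2 enzyme (Hsd11b2) inactivates it. The active steroid frees the glucocorticoid receptor (Nr3c1) from its chaperones, and the receptor then switches on genes such as Fkbp5, Tsc22d3 and Per1. The mineralocorticoid receptor (Nr3c2) binds the same steroids. Before birth this signal prepares the lung for breathing air and the liver for making glucose.

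Arrays of 1 group correlated at 0.9885 to 0.9954. The tissue labels were checked against markers: the mean level of 7 alveolar type 2 markers was 11.09 to 11.62 in lungs and 5.48 to 6.11 in livers, and that of 14 hepatocyte markers was 7.30 to 9.55 in lungs and 12.76 to 12.93 in livers. Some arrays stood apart on markers of neighbouring organs. The mean of 9 stomach markers was 6.55, 5.90 and 5.75 in the control livers of litters 2, 3 and 5, against 4.95 to 5.23 in every other liver. That of 5 exocrine pancreas markers was 5.35, 6.10, 5.95, 6.28 and 5.84 in control livers. It was 5.40 to 6.38 in livers at 5 and 5.31 to 5.84 at 10 mg/kg/day. The mean of 4 club cell markers was 7.47 in the control liver of litter 4, against at most 6.15 in other livers. That liver stays in when the 3 livers high in stomach markers are left out. The mean of 8 cardiac muscle markers ran from 6.86 to 10.03 over the lungs. That of 5 skeletal muscle markers was 4.39 to 6.03 in control lungs, 4.15 to 7.03 at 5 and 5.38 to 6.70 at 10 mg/kg/day. That of 5 squamous epithelium markers was 3.79 to 4.99, 3.76 to 5.73 and 3.75 to 5.40. That of 7 thymus markers was 5.71 in the lung of litter 3 at 10 mg/kg/day, against at most 4.61 in other lungs. Club cell markers averaged 10.63 in the lung of litter 1 at 5 mg/kg/day, against at least 11.32 in other lungs. The lungs of litter 1 at 0 and at 5 mg/kg/day were set apart by Serpina6 itself and by other plasma protein genes. Values without the 3 livers high in stomach markers, or without these lungs of litter 1, are given where a call turns on them.

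A gene was tested in a tissue when it lay above the 40th percentile of the array (4.156 to 4.217 in lung and 4.162 to 4.225 in liver) on at least 5 of 15 arrays. It was called when its limma p, adjusted by Benjamini-Hochberg over all genes tested, was under 0.05. By that rule 6 of the 9 glucocorticoid genes were tested in both tissues, and Nr3c2, Hsd11b2 and Crh were too dim in both. In liver, 2 of the 6 were called at 5 and 2 at 10 mg/kg/day, Hsd11b1 and Tsc22d3 each time, both lower. All genes tested in liver were called at a rate of 6.07% at 5 and 10.5% at 10 mg/kg/day, and called as lower at 1.81% and 5.22%. In lung, limma called 0 of the 6 at either dose, against 0.0155% of all genes at 5 and 0.0543% at 10 mg/kg/day. None of the 6 had an unadjusted p under 0.05 in lung, against 4.62% and 6.91% of all genes. Between the 10 and 5 mg/kg/day groups 0 of the 6 were called in either tissue, against 0% of all genes in lung and 0.00754% in liver. With an unadjusted p under 0.05 there were 0 of 6 in lung, against 2.3% of all genes, and 2 of 6 in liver, against 7.8%.

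**Figure D1:**
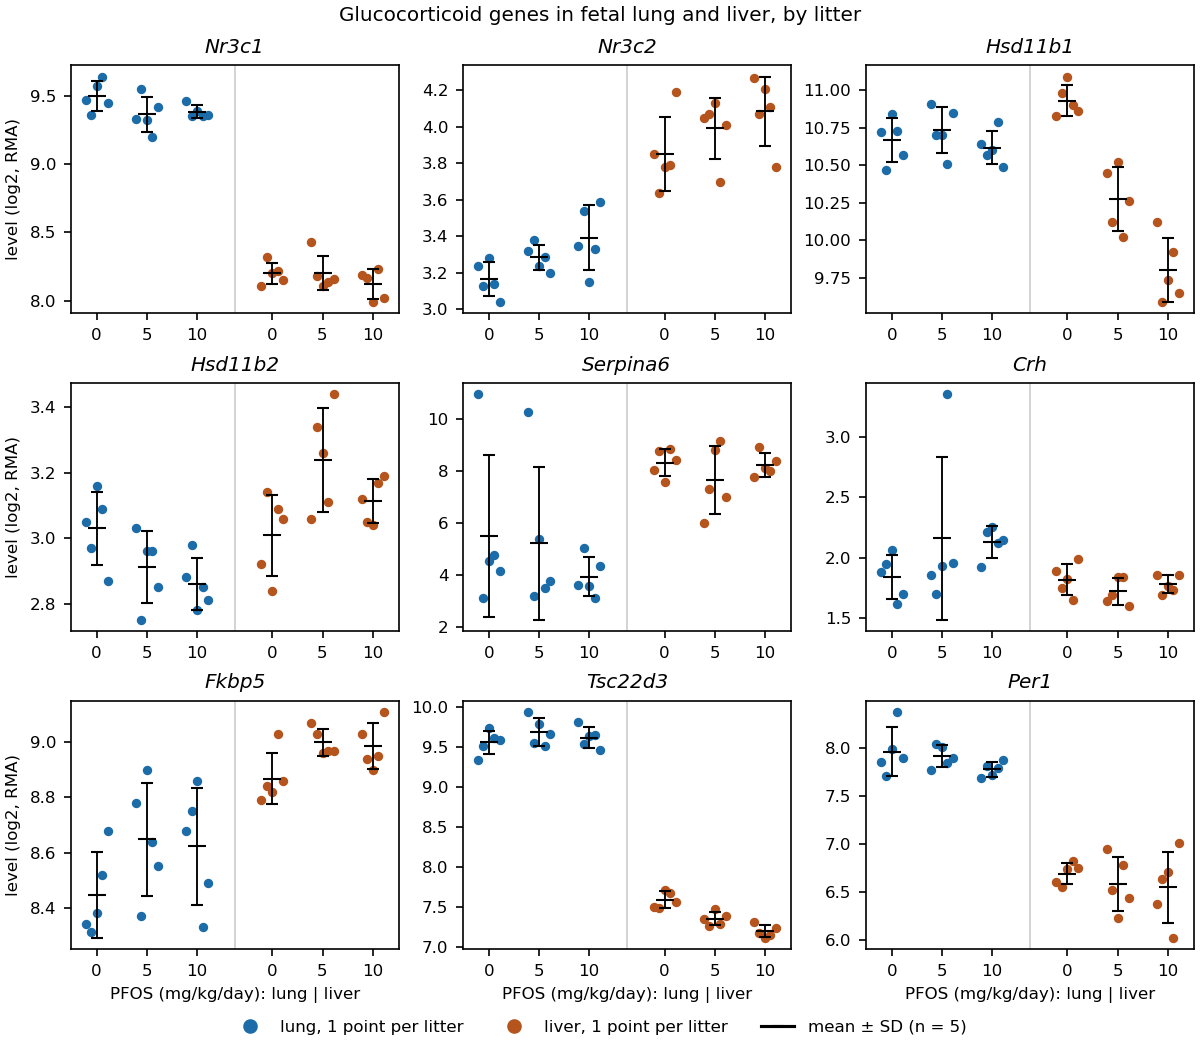
Log2 level (vertical axis) of the 9 glucocorticoid genes against PFOS dose in mg/kg/day, lung in blue and liver in orange; each point is 1 litter, and the bars are the mean ± SD of 5 litters. Hsd11b1 and Tsc22d3 are lower in all exposed livers than in all control livers and overlap between doses in lung, and Serpina6 reaches 10.94 and 10.26 in 2 lungs, above every liver.

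The promoters of the 2 genes called in liver, and of Per1, the clock gene among the response genes, are shown because the receptor, the clock factors and liver nuclear receptors act through short DNA motifs. They are RefSeq sequence of the mouse assembly GRCm38.p6, in windows of 300 bases that reach from upstream of an annotated start to just past it, written 5′ to 3′ along the gene. Hsd11b1 is the window chr1:193242311-193242610 on the minus strand, inside a gene annotated at chr1:193221640-193264045. Tsc22d3 is chrX:140600473-140600772 on the minus strand, the 1 of its 3 start windows that held a motif searched. Per1 is chr11:69098699-69098998 on the plus strand, the 1 of its 2 windows that held one. Capitals mark matches on either strand.
Hsd11b1: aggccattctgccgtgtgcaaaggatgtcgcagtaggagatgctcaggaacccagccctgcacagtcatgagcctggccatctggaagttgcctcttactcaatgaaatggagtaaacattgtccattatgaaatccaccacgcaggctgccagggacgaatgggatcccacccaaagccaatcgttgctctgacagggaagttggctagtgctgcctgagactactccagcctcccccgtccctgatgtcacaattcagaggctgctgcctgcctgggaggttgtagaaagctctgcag
Tsc22d3: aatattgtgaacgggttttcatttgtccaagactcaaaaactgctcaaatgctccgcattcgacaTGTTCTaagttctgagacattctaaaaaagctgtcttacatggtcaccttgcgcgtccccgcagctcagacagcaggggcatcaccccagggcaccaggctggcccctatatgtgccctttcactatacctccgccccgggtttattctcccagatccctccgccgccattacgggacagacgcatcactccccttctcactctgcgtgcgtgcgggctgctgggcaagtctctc
Per1: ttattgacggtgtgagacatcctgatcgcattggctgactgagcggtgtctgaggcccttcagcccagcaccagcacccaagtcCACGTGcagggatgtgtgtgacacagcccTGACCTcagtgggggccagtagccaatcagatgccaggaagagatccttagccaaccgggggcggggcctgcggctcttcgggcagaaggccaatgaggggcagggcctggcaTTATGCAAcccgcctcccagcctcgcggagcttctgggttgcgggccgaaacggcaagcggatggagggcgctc
Tsc22d3 held TGTTCT, the core of the glucocorticoid response element, at base -185 from the start, a motif present in 19.0% of the 32851 promoter windows of the table. Per1 held the E-box CACGTG, which clock factors bind, at -166 (in 7.15% of windows), the reverse complement of the nuclear receptor motif AGGTCA at -137 (16.3%) and the C/EBP motif TTGCNNAA at -24 (10.8%). The Hsd11b1 window held none of the 7 motifs searched. The other 3 were the full palindromic glucocorticoid response element, which contains TGTTCT and lay in 0.00913% of windows, the direct repeat that PPAR-alpha binds, which contains AGGTCA and lay in 0.0396%, and the HNF1 motif, in 0.00913%. A match is a run of letters and not a measured binding site. The Tsc22d3 and Per1 windows were picked because they held a motif, so having a match was fixed by the choice. The shares are for 1 motif in 1 window and do not show how rare these matches are. Among windows not printed here, that of Fkbp5 also held the E-box, at -169. That of Nr3c2 held the C/EBP motif at 2 places. Matches were not looked up for Nr3c1, Serpina6, Hsd11b2 or Crh.

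Hsd11b1, on the array as a single probe set, showed the largest change among the glucocorticoid genes called in liver. Its level in the 5 livers was 10.83, 10.98, 11.09, 10.90 and 10.86 at 0 mg/kg/day, 10.45, 10.12, 10.52, 10.02 and 10.26 at 5, and 10.12, 9.59, 9.74, 9.92 and 9.65 at 10. Every exposed liver lay below every control liver, and the 5 and 10 mg/kg/day livers overlapped between 10.02 and 10.12. Hsd11b1 fell by 0.66 on the log2 scale at 5 mg/kg/day, to 63.5% of the control level (SE 0.11, 95% interval -0.89 to -0.42, limma adjusted p = 0.00151). It fell by 1.13 at 10 mg/kg/day, to 45.8% of the control level (SE 0.11, 95% interval -1.36 to -0.89, limma adjusted p = 4.85e-06). Groups that do not overlap, with the exposed one lower, were found for 2.77% of all genes in liver at 5 and 4.41% at 10 mg/kg/day. In whole tissue, fewer hepatocytes and less RNA per hepatocyte cannot be told apart; the mean of the hepatocyte markers was 12.84 to 12.86 in livers at 5 and 12.76 to 12.85 in livers at 10, against 12.81 to 12.93 in control livers. Left without the 3 control livers high in stomach markers, which leaves 2 controls, the change at 5 mg/kg/day was -0.59 and no longer called (adjusted p = 0.0703), and that at 10 was -1.06 (adjusted p = 0.00143).

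The step between the doses did not pass the test. Hsd11b1 in liver differed by -0.47 between 10 and 5 mg/kg/day (unadjusted p = 0.000549, adjusted p = 0.412). It ranked 15 by p among the 13269 genes tested between these doses. All 5 livers at 10 mg/kg/day lay below the mean of the 5 mg/kg/day livers.

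In lung the same gene was not called. Hsd11b1 was 10.72, 10.47, 10.84, 10.73 and 10.57 in lungs at 0 mg/kg/day, 10.91, 10.70, 10.70, 10.51 and 10.85 at 5, and 10.64, 10.57, 10.60, 10.79 and 10.49 at 10. The 3 groups overlapped throughout. Its change was 0.07 at 5 mg/kg/day (95% interval -0.11 to 0.25) and -0.05 at 10 (95% interval -0.23 to 0.13), neither called (limma adjusted p = 0.998 and 0.932). The lung change minus the liver change was itself tested: 0.72 at 5 mg/kg/day (SE 0.14, limma adjusted p = 0.00344) and 1.07 at 10 (SE 0.14, limma adjusted p = 1.12e-05). Of the 6 genes 1 was called in this contrast at 5 and 2 at 10 mg/kg/day, against 2.06% and 3.89% of all genes. Without the 3 control livers high in stomach markers, the difference at 5 mg/kg/day was 0.66 with an adjusted p of 0.0543.

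Control livers had the highest mean of this enzyme and exposed livers the lowest. By mean level Hsd11b1 ran, from high to low, control liver 10.93, lung at 5 mg/kg/day 10.74, control lung 10.67, lung at 10 mg/kg/day 10.62, liver at 5 mg/kg/day 10.28 and liver at 10 mg/kg/day 9.80. The 3 lung groups are neighbours whose spreads overlap, and the livers at 5 mg/kg/day, at 10.02 to 10.52, reached into the lowest lungs. In unexposed fetuses the lung minus liver difference was -0.26 (limma adjusted p = 0.0180), with overlapping litters. That call was lost with quantile normalization of all arrays (-0.12, adjusted p = 0.263), without the 3 control livers (-0.20, adjusted p = 0.190), without control lung 2 (adjusted p = 0.0609) and without control liver 3 (adjusted p = 0.0541).

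Hsd11b2 and H6pd complete the enzyme step. Hsd11b2 was dim on every array, at 2.75 to 3.16 in lungs and 2.84 to 3.44 in livers, below the 40th percentile throughout, so its order across groups carries little. With no filter on dim probe sets its changes at 5 and 10 mg/kg/day were -0.12 and -0.17 in lung (unadjusted p = 0.105 and 0.0263). In liver they were 0.23 and 0.11 (unadjusted p = 0.0116 and 0.207). None was called (adjusted p = 0.998 and 0.708 in lung, 0.148 and 0.540 in liver). H6pd supplies the cofactor that makes Hsd11b1 run in the activating direction, and was singled out for that role with its values known. Its level in livers was 9.28 to 9.73 at 0, 9.47 to 9.75 at 5 and 9.44 to 9.75 at 10 mg/kg/day. The changes in liver, 0.17 and 0.14, were not called (limma adjusted p = 0.311 and 0.354).

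Nr3c1, the glucocorticoid receptor, was higher in lung than in liver and was not called at any dose. Its level in lungs was 9.47, 9.36, 9.57, 9.64 and 9.45 at 0 mg/kg/day, 9.33, 9.55, 9.32, 9.20 and 9.42 at 5, and 9.46, 9.35, 9.39, 9.35 and 9.36 at 10. In livers it was 8.11, 8.32, 8.20, 8.22 and 8.15 at 0, 8.43, 8.18, 8.11, 8.14 and 8.16 at 5, and 8.19, 8.17, 7.99, 8.23 and 8.02 at 10. No lung came near any liver, and doses overlapped within each tissue. In unexposed fetuses the lung was 1.30 higher than the liver, at 246% of its level (limma adjusted p = 2.1e-16). The changes were -0.13 and -0.12 in lung at 5 and 10 mg/kg/day (unadjusted p = 0.0654 and 0.105) and 0.0048 and -0.08 in liver (unadjusted p = 0.947 and 0.281). The sign of the 5 mg/kg/day value in liver depended on the settings. Nr3c1 has 6 probe sets, and the 4 others above the 40th percentile on all arrays were, like the chosen one, higher in lungs than in livers on average.

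Nr3c2, the mineralocorticoid receptor, was near the floor of the arrays. It was 3.04 to 3.59 in lungs and 3.64 to 4.27 in livers, and lay above the 40th percentile on 1 of 30 arrays. Within that dim range every lung lay below every liver. Its group means were ordered by dose in both tissues, 3.17, 3.29 and 3.39 in lungs and 3.85, 3.99 and 4.09 in livers at 0, 5 and 10 mg/kg/day. At such levels the order carries little, as for Hsd11b2. With no filter on dim probe sets the change at 10 mg/kg/day was 0.23 in lung (unadjusted p = 0.0107, adjusted p = 0.647) and 0.24 in liver (unadjusted p = 0.0501, adjusted p = 0.259), neither called.

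Tsc22d3, also called GILZ, encodes a leucine zipper protein that the glucocorticoid receptor induces and that restrains inflammatory signalling. Its level in livers was 7.51, 7.49, 7.72, 7.68 and 7.57 at 0 mg/kg/day, 7.36, 7.27, 7.48, 7.29 and 7.39 at 5, and 7.32, 7.18, 7.12, 7.16 and 7.24 at 10. Every exposed liver lay below every control liver. It fell by 0.24 on the log2 scale at 5 mg/kg/day, to 84.7% of the control level (SE 0.06, limma adjusted p = 0.0347), and by 0.39 at 10, to 76.1% (SE 0.06, limma adjusted p = 0.000706). The call at 5 mg/kg/day was fragile: it was lost on leaving out any 1 of 7 litters (control livers 3, 4 and 5, and livers 1, 2, 4 and 5 at 5 mg/kg/day), with adjusted p of up to 0.0838, and in 7 of 11 other settings. Without the 3 control livers high in stomach markers it was -0.24 with an adjusted p of 0.201. The call at 10 mg/kg/day held without them (-0.39, adjusted p = 0.0194) and was lost when the 4 probe sets of the gene were averaged (-0.18, adjusted p = 0.0513). The probe set next in level, at 7.16 in control livers, differed from control by -0.15 and -0.29; the 2 dimmer ones differed by -0.19 and 0.03 at 5 and by -0.05 and 0.01 at 10.

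In lung the chosen probe set of Tsc22d3 lay far higher and was not called. It was 9.34, 9.51, 9.74, 9.62 and 9.59 in lungs at 0 mg/kg/day, 9.94, 9.55, 9.79, 9.52 and 9.67 at 5, and 9.81, 9.54, 9.64, 9.65 and 9.47 at 10. The groups overlapped, and the changes were 0.13 and 0.06 (limma adjusted p = 0.998 and 0.927). The lung change minus the liver change was 0.37 at 5 mg/kg/day, not called (limma adjusted p = 0.0920), and 0.45 at 10 (limma adjusted p = 0.0165), a call lost on centring each array on its median (0.41, adjusted p = 0.0568) and without the 3 control livers (0.45, adjusted p = 0.0748). In unexposed fetuses the lung was 1.97 higher than the liver, at 391% of its level (limma adjusted p = 3.57e-19). The probe set next in level was also higher in control lungs, at 9.16 against 7.16 in control livers. The dimmer ones were not, at 5.79 and 3.44 in control lungs against 5.95 and 3.58. In lung the next probe set differed from control by 0.09 and 0.06. The dimmer ones differed by 0.25 and 0.10 at 5 and by 0.33 and 0.13 at 10 mg/kg/day.

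**Figure D2:**
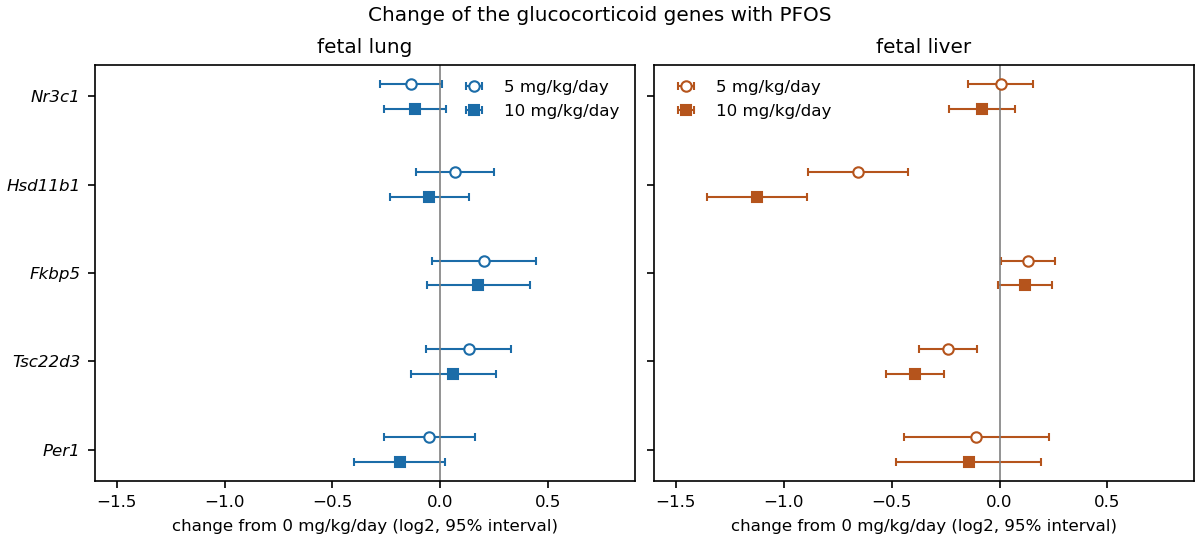
Change from 0 mg/kg/day (horizontal axis, log2, with the 95% interval of the limma fit, 5 litters a group) of 5 glucocorticoid genes in lung and liver, at 5 (open circles) and 10 mg/kg/day (filled squares); Serpina6 is left out for its wide interval. The liver intervals of Hsd11b1 and Tsc22d3 lie below 0 at both doses, and the lung intervals of all 5 genes include 0.

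Fkbp5, the co-chaperone that the receptor induces and that lowers the receptor's affinity for its hormone, did not follow Tsc22d3. In livers it was 8.79, 8.84, 8.82, 9.03 and 8.86 at 0 mg/kg/day, 9.07, 9.03, 8.96, 8.97 and 8.97 at 5, and 9.03, 8.94, 8.90, 8.95 and 9.11 at 10. All 5 livers at each dose lay above the control mean, and the groups overlapped through control litter 4. The changes of 0.13 (95% interval 0.01 to 0.26, unadjusted p = 0.0406, adjusted p = 0.223) and 0.12 (95% interval -0.01 to 0.24, unadjusted p = 0.0597, adjusted p = 0.231) were not called. In lungs it ran from 8.31 to 8.90, with changes of 0.20 and 0.18, not called (unadjusted p = 0.0943 and 0.139). In unexposed fetuses the lung minus liver difference was -0.42 (limma adjusted p = 0.000129), with no overlap.

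Per1, a clock gene that the receptor also induces, varied more between exposed than between control livers and was not called. In livers it was 6.60, 6.55, 6.74, 6.82 and 6.75 at 0 mg/kg/day, 6.95, 6.52, 6.23, 6.78 and 6.44 at 5, and 6.37, 6.63, 6.71, 6.02 and 7.01 at 10. The SD was 0.11 at 0, 0.285 at 5 and 0.37 at 10 mg/kg/day; the difference in spread was not tested. The changes in liver were -0.11 and -0.14 (unadjusted p = 0.507 and 0.380). In lungs it was 7.71 to 8.38 at 0, 7.77 to 8.05 at 5 and 7.69 to 7.88 at 10 mg/kg/day, with changes of -0.05 and -0.19 (unadjusted p = 0.622 and 0.0782). In unexposed fetuses the lung was 1.28 higher than the liver, at 242% of its level (limma adjusted p = 1.76e-09).

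In unexposed fetuses 6 of the 6 tested genes differed between the tissues, 3 higher and 3 lower in lung, against 83% of all genes, 40.4% higher and 42.6% lower. Nr3c1, Tsc22d3 and Per1 were the higher ones, and Hsd11b1, Fkbp5 and Serpina6 the lower ones.

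Serpina6 was set apart by 2 lungs. Its level in lungs was 10.94, 3.12, 4.54, 4.76 and 4.15 at 0 mg/kg/day, 10.26, 3.21, 5.38, 3.51 and 3.77 at 5, and 3.62, 5.04, 3.59, 3.14 and 4.35 at 10. Litter 1 was the high lung at 0 and at 5 mg/kg/day, where a number only names an array within its group, and the 13 other lungs ran from 3.12 to 5.38. These 2 levels are the reason the gene is shown by litter, and are a description. Of the 15 lungs 7 lay above the 40th percentile, so no fold is given against the others. In livers, where the protein is made, it was 8.02, 8.76, 7.56, 8.83 and 8.42 at 0, 6.0, 7.31, 8.82, 9.16 and 6.99 at 5, and 7.76, 8.91, 8.10, 7.98 and 8.37 at 10. Both lungs exceeded all 15 livers.

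Those 2 lungs shared a set of liver-enriched genes. In both of them 50 genes, Serpina6 included, were higher by at least 1 on the log2 scale than in any of the 13 other lungs, and all 50 had a higher median in livers than in lungs. Next to Serpina6 the largest gaps were those of Sult2a2, a steroid sulfotransferase, at 6.56 and 7.60 in the lungs of litter 1 at 0 and 5 mg/kg/day and at most 3.03 in the others, and Hpx, the heme carrier hemopexin, at 9.80 and 9.68 and at most 6.54 in the others. Of the 50 genes, Serpina6 alone was above every liver in both lungs. Cyp2c29, a cytochrome P450, was above every liver in 1 of them, at 10.30 in the lung of litter 1 at 5 mg/kg/day against at most 9.43 in livers. These genes were picked for their gap, so the gap is a description with no test.

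The hepatocyte markers did not all move with them. In both lungs 6 of 14 markers lay above all 13 other lungs: Alb (13.11 and 13.17, against at most 12.52), Apoa1, Apoa2, Apob, Ambp and Hpx. Of the other 8, alpha-fetoprotein (Afp), the albumin-like protein of the fetal liver, was below every other lung, at 8.29 and 9.63 against 9.91 to 11.74. None of the 14 reached the lowest liver in either lung; for Afp the lowest liver was 12.71. The mean of the 14 markers was 9.18 and 9.55 in these lungs and 7.30 to 9.07 in the others. The part of hepatocyte RNA in the 2 lungs was not tested.

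**Figure D3:**
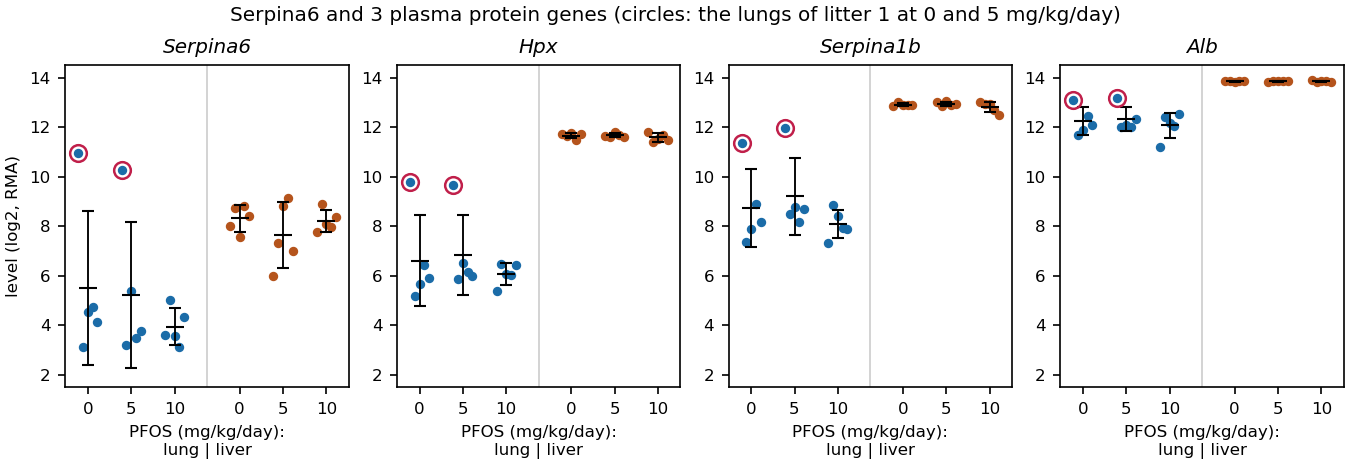
Log2 level of Serpina6, hemopexin (Hpx), the alpha-1-antitrypsin gene Serpina1b and albumin (Alb) against PFOS dose, lung in blue and liver in orange, 1 point per litter with the mean ± SD of 5 litters; circles ring the lungs of litter 1 at 0 and 5 mg/kg/day. The ringed lungs are high in all 4 genes, and only for Serpina6 do they exceed every liver.

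With dose, Serpina6 was called in neither tissue. In liver its difference from control was -0.67 at 5 mg/kg/day (95% interval -1.67 to 0.34, adjusted p = 0.488) and -0.09 at 10 (95% interval -1.10 to 0.91, adjusted p = 0.940). The livers at 5 mg/kg/day had the widest spread, with an SD of 1.32 against 0.53 in control livers. In lung the means were decided by the 2 high litters, so no change is read from them. In unexposed fetuses the lung minus liver difference of Serpina6 was -2.82 (limma adjusted p = 0.0205), and -4.18 without the lung of litter 1. Of the 5 control lungs 3, the high one included, lay above the 40th percentile, so neither value is a measured size. The call was lost without control lung 2 (adjusted p = 0.0736), without control lung 5 (adjusted p = 0.0536) and without the 3 control livers (adjusted p = 0.0857).

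Crh, which encodes corticotropin-releasing hormone of the hypothalamus, was dim on every array. It was 1.62 to 2.06 in lungs at 0 mg/kg/day, 1.70 to 3.35 at 5 and 1.92 to 2.25 at 10, and 1.60 to 1.99 in livers. The 3.35 belongs to the lung of litter 4 at 5 mg/kg/day, still below the 40th percentile. Of the other genes of the CRH and urocortin axis, 3 of 9 were bright enough to test, and limma called 0 of 3 in either tissue at either dose (0 of 3 with an unadjusted p under 0.05). With 3 genes, these counts are too small to set beside the share of all genes.

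Genes known to respond to glucocorticoids in many cell types went both ways in liver. At 10 mg/kg/day 3 of 29 rose and 4 fell, against 10.5% of all genes called in either direction, with a median change of 0.003 against -0.02 over all genes. Pdk4, a brake on glucose oxidation, rose by 2.13 on the log2 scale (limma adjusted p = 4.23e-07), Angptl4, a lipase inhibitor, by 0.79 (limma adjusted p = 0.00171) and the transcription factor Cebpb by 0.56 (limma adjusted p = 0.00143). The clock gene Per2 fell by 0.83 (limma adjusted p = 0.00247). The other 3 that fell, Errfi1, Lcn2 and Sesn1 (by 0.48, 0.31 and 0.22), were named after their values were seen, to complete the count. At 5 mg/kg/day the same 3 genes rose (Pdk4 by 1.77, Angptl4 by 0.60, Cebpb by 0.36) and 0 fell. Pdk4 and Angptl4 are also targets of PPAR-alpha, the fatty acid receptor that PFOS is known to activate in liver. The part of that receptor in these rises was not tested. Without the 3 control livers, Pdk4 was the 1 of the 3 still called at 5 mg/kg/day, and at 10 none of the 4 that fell was (Per2 adjusted p = 0.0823). At 5 mg/kg/day Angptl4 and Cebpb were then at 0.60 and 0.47. At 10 Per2, Errfi1, Lcn2 and Sesn1 were at -0.78, -0.48, -0.33 and -0.18. Leaving out 1 litter ended the call of Errfi1 in 8 of 10 cases and of Lcn2 and Sesn1 in 7 each at 10 mg/kg/day, and at 5 that of Cebpb in 6 of 10 and that of Angptl4 without liver 1 (adjusted p = 0.0506).

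Genes that glucocorticoids induce in liver, most of them for amino acid and glucose metabolism, included 4 that were lower at 10 mg/kg/day. Of 11 tested, 4 fell and 0 rose, with a median change of -0.39 against -0.02 over all genes, where 5.22% were called lower. Tdo2, which opens tryptophan breakdown, fell by 1.55 (limma adjusted p = 0.0233), Cps1, the entry enzyme of the urea cycle, by 0.47 (limma adjusted p = 0.00265), the alanine aminotransferase Gpt2 by 0.37 (limma adjusted p = 0.0392) and angiotensinogen, Agt, by 0.26 (limma adjusted p = 0.0364). Tdo2 per liver was 7.50, 8.03, 8.27, 7.12 and 8.78 at 0 mg/kg/day, 6.75, 6.85, 7.02, 5.34 and 6.77 at 5, and 6.95, 5.31, 7.53, 6.21 and 5.93 at 10. At 5 mg/kg/day limma called 0 of the 11, against 6.07% of all genes, with Tdo2 at -1.39 (adjusted p = 0.0572) and no overlap with the control livers. Of the 11, 3 had an unadjusted p under 0.05, a count without the share of all genes. Such p were common in this comparison: that of Fkbp5, 0.0406, ranked 2414 by p among 13269 genes. Without the 3 control livers none of the 4 was called at 10 mg/kg/day, and the change of Tdo2 was -0.93 (adjusted p = 0.404). Those of Cps1, Gpt2 and Agt were then -0.40, -0.32 and -0.25. Leaving out 1 litter ended the call of Tdo2 for livers 2 and 5 at 10 mg/kg/day and control livers 3 and 5 (adjusted p up to 0.0599). It ended that of Gpt2 in 6 and of Agt in 7 of 10 cases. All 30 arrays in 1 fit ended that of Cps1 (adjusted p = 0.286). Such a fit gives each gene 1 spread over lung and liver together. The SD of Cps1 in lungs was 0.54 at 0 and 0.64 at 5 mg/kg/day.

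Of 13 further clock genes tested in liver, 3 rose and 2 fell at 10 mg/kg/day, around an uncalled Per1, against 10.5% of all genes called in either direction. The repressor Nr1d2 rose by 0.99 (limma adjusted p = 0.00128): it was 5.92, 6.50, 6.39, 6.60 and 6.49 in livers at 0 mg/kg/day, 6.48, 7.03, 7.19, 6.97 and 7.23 at 5, and 7.38, 7.17, 6.96, 7.84 and 7.50 at 10. Every liver at 10 mg/kg/day lay above every control liver, a description given without the share of all genes that did so. The value at 5 was not called (0.60, adjusted p = 0.0506). The output factor Hlf rose by 0.50 (limma adjusted p = 0.00228) and Nr1d1 by 0.26 (limma adjusted p = 0.0436). Per2 is the larger of the falls, and Arntl, the activator of the loop, fell by 0.26 (limma adjusted p = 0.0222; named after its value was seen). At 5 mg/kg/day only Hlf was called, higher by 0.48 (limma adjusted p = 0.00504), a call lost without the 3 control livers (0.50, adjusted p = 0.0740). Without the 3 control livers Nr1d2 (1.11, adjusted p = 0.0222) and Hlf (0.53, adjusted p = 0.0434) were still called at 10 mg/kg/day. Nr1d1, Per2 and Arntl, then at 0.20, -0.78 and -0.24, were not. Leaving out 1 litter ended the call of Nr1d1 in 9 of 10 cases and that of Arntl in 3.

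**Figure D4:**
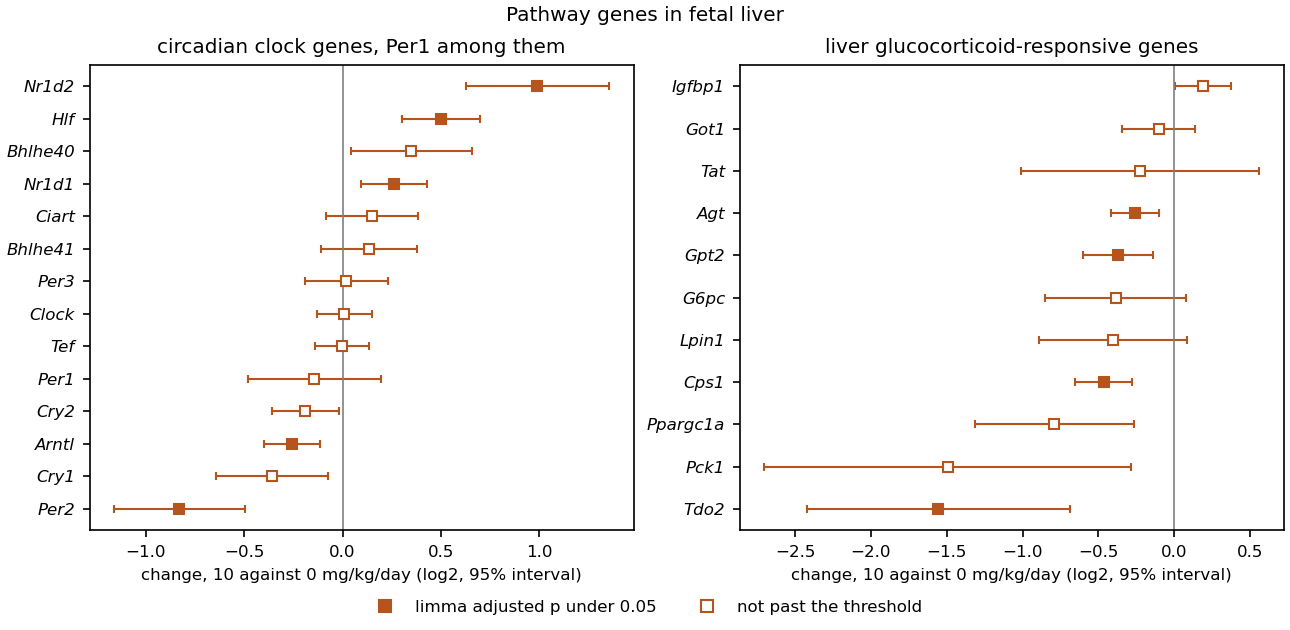
Change in fetal liver at 10 against 0 mg/kg/day (horizontal axis, log2, with the 95% interval of the limma fit, 5 litters a group) of the clock genes with Per1 and of the liver glucocorticoid-responsive genes; filled squares passed an adjusted p of 0.05. The clock genes lie on both sides of 0, and of the 11 liver genes Igfbp1 alone has a value above 0.

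Of the genes that metabolise or export steroids, 1 of 9 rose and 1 fell in liver at 10 mg/kg/day, a count too small to set apart from the 10.5% called among all genes. Cyp3a11, a steroid hydroxylase, rose by 1.17 (limma adjusted p = 3.71e-05). Its rise at the lower dose was 1.06 (limma adjusted p = 0.000186). Akr1c6, a hydroxysteroid dehydrogenase, fell by 0.92 at 10 (limma adjusted p = 0.0139). The calls of both genes were lost when all 30 arrays shared 1 fit (adjusted p = 0.279 and 0.182 for Cyp3a11 at 5 and 10 mg/kg/day, and 0.345 for Akr1c6). That of Akr1c6 was also lost without the 3 control livers (-0.89, adjusted p = 0.122). The 30-array fit also takes in the spread of the lungs. In lungs the SD at 0 and 5 mg/kg/day was 1.32 and 1.74 for Cyp3a11, and 1.59 and 1.58 for Akr1c6. Among 14 receptor chaperones and coregulators 1 was called, the co-chaperone Stip1, which at 10 mg/kg/day rose by 0.24 (limma adjusted p = 0.0482). That call was ended by 9 of 10 litters when left out, and was lost without the 3 control livers (0.24, adjusted p = 0.143).

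The other Serpina genes of liver and the hormone carriers included called genes, unlike Serpina6. Of 7 Serpina genes tested, 1 rose and 2 fell at 10 mg/kg/day, against 10.5% of all genes called in either direction and 5.22% called lower. Serpina7, the thyroxine-binding globulin, rose by 1.86 (limma adjusted p = 1.22e-05). Its rise at the lower dose was 1.44 (limma adjusted p = 0.000253). Its level in livers was 7.43, 7.36, 8.49, 8.28 and 7.78 at 0, 9.01, 9.62, 9.49, 9.10 and 9.32 at 5, and 9.74, 9.43, 9.64, 10.02 and 9.80 at 10 mg/kg/day. Every exposed liver lay above every control liver, also a description without the share of all genes that did so. Serpina1c, an alpha-1-antitrypsin gene with close paralogs that may share probes, fell by 0.50 and Serpina10 by 0.34 at 10 mg/kg/day. All 30 arrays in 1 fit ended both calls (adjusted p = 0.637 and 0.399). Leaving out the 3 control livers ended that of Serpina10 (-0.38, adjusted p = 0.0622). The lung SD, which enters the 30-array fit, was 1.46 at 0 and 1.64 at 5 mg/kg/day for Serpina1c. For Serpina10 it was 0.73 and 0.53. Of 5 plasma hormone carriers, Serpina7 among them, it was the 1 called. In the Serpina genes the mean level was 6.22 and 6.34 in the 2 lungs high in Serpina6 and 4.71 to 5.47 in the 13 others.

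In lung the response genes were almost all uncalled. Of the 29 general glucocorticoid-induced genes, Angptl4 was the 1 called at 10 mg/kg/day, higher by 0.97 (limma adjusted p = 0.00873). It was 5.36, 5.76, 5.75, 6.15 and 5.43 in lungs at 0 mg/kg/day, 6.46, 6.13, 6.52, 6.03 and 6.18 at 5, and 6.70, 6.69, 6.58, 6.83 and 6.52 at 10. Every lung at 10 mg/kg/day lay above every control lung, a description without the share of all genes that did so. At 5 mg/kg/day limma called 0 of 29 (7 with an unadjusted p under 0.05, against 4.62% of all genes). Of the 29, 24 had a change above 0, against 52% of all genes (median 0.07, against 0.004 over all genes). These changes share the same 5 control lungs, so the count is a description and not 29 separate results. The mean of the list, 30 genes before the filter, was 8.29, 8.29, 8.56, 8.61 and 8.46 in control lungs. It was 8.55, 8.51, 8.71, 8.44 and 8.56 at 5 mg/kg/day, and 8.6, 8.44, 8.48, 8.55 and 8.52 at 10. Control lungs 1 and 2 were the lowest, and the groups overlapped. Among 19 genes that glucocorticoids act on in the maturing lung, surfactant proteins, sodium channels and aquaporins among them, limma called 0 at either dose. At 10 mg/kg/day 3 of these 19 had an unadjusted p under 0.05, against 6.91% of all genes. The smallest were those of the water channel Aqp5, at -0.26 (unadjusted p = 0.0126, adjusted p = 0.594), and Crispld2, at 0.41 (unadjusted p = 0.0128, adjusted p = 0.594). Of the 17 of them bright enough in liver, 1 rose and 2 fell at 10 mg/kg/day, against 10.5% of all genes called in either direction: Fasn rose by 0.45, and Scnn1a and Aqp1 fell by 0.64 and 0.49. None of the 3 was called without the 3 control livers, which leaves 2 controls. The changes were then 0.57 for Fasn, -0.87 for Scnn1a and -0.48 for Aqp1. Leaving out 1 litter ended the call of Scnn1a in 8 and of Aqp1 in 3 of 10 cases.

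The genes whose levels ran most like each member were sought among 13217 genes over the 15 arrays of a tissue. They are descriptions: each was picked as the highest of many correlations, the arrays share tissue and dose, and no test was made. In liver, Hsd11b1 was most like Gpld1 (Pearson r = 0.970, Spearman rho = 0.943, and r = 0.966 without the 2 arrays farthest from the median) and Apof (r = 0.968, rho = 0.936). Ndrg2, Bche and Nat8f1 followed with r of 0.958, 0.958 and 0.955. Tsc22d3 in liver was most like Cyp39a1 (r = 0.948, rho = 0.921), and Hsd11b1 itself ranked 5 (r = 0.933). Between Hsd11b1 and Tsc22d3 the correlation of the deviations from the dose means, which the dose course does not enter, was 0.591 over the 15 livers. It was 0.563 over the lungs, where neither gene was called, so it was not particular to liver. Nr3c1 with Per1 had a higher one in lung, 0.626.

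In lung, Tsc22d3 was most like Nfkbia, the NF-kappa-B inhibitor that the receptor also induces (r = 0.878, rho = 0.875), and Fkbp5 most like Map3k6, another gene of the general response list (r = 0.804, rho = 0.804). Per1 in lung was most like Pcbp2 (r = 0.884, rho = 0.882) and Nr3c1 most like Cutal (r = 0.803, rho = 0.739). Serpina6 in lung was most like Hpx (r = 0.972), Mbl2, Itih4, Ugt2b5 and Serpina10. Those values rest on the 2 high lungs: without the 2 arrays farthest from the median the r with Hpx was 0.659. In liver Serpina6 was most like Gabarapl2 (r = 0.852, rho = 0.886), followed by Zc2hc1a, Cenpi, Nusap1 and Fbxo30, none of which was on its lung list.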

How the data were processed

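The 30 Affymetrix mouse genome arrays were analysed from the log2 values the authors deposited, made by RMA per the submitters' processing notes; the notes name no RMA version and do not say whether both tissues were processed as 1 set. Of 45101 probe sets, 34945 had 1 gene symbol in the platform annotation, 932 several, 9160 none and 64 were controls. Each of 18193 genes was represented by its brightest probe set on average. limma 3.58.1 (R 4.3.3) compared doses within a tissue over its 15 arrays, and tissues over all 30, with two-sided tests adjusted by Benjamini-Hochberg over all genes tested, after a filter at the 40th percentile on at least 5 of 15 arrays. Comparisons of lung with liver took genes that passed the filter in either tissue. The fit was tested on simulated data. Figures and values used Python 3.11.15 and matplotlib 3.10.9. The glucocorticoid genes and the gene lists were chosen with earlier results of these data known. From a list the text names at most 4 of the called genes, largest changes first, and where none was called at most 2 with the smallest p, and from each search for like genes the top 5. Same-numbered lungs and livers of a dose had deviations correlated at 0.0015 to 0.354, over 0.1 in 12 of 15 pairs, and no label ties the numbers to a litter across tissues, so the tests were not paired. Alternatives were other filters, normalizations, probe set rules, variance models, samples in the fit, a replicate block and leaving out each litter. List genes without a platform symbol were not used here.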

Additional observations from a re-analysis of the deposited data

Results flagged for a closer look

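The lung and liver responses differed for 2 genes. The lung change minus the liver change of Hsd11b1 was 0.72 at 5 and 1.07 at 10 mg/kg/day, and that of Tsc22d3 was 0.45 at 10 mg/kg/day, each past an adjusted p of 0.05 in limma's test of the difference itself.

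Among 54 groups of 5 litters (9 genes in 2 tissues at 3 doses), 5 held a litter whose gap to its nearest neighbour, as a share of the group's range, passed Dixon's critical value; chance passes about 1 in 20 groups. Serpina6 in the control lung of litter 1 had a gap of 0.791 of the range; the gene was chosen with that value known, so its gap is a description. Crh in the lung of litter 4 at 5 mg/kg/day had one of 0.843, at levels below the 40th percentile of the array. In livers, Nr3c1 in litter 1 at 5 mg/kg/day had a gap of 0.781, Nr3c2 in litter 4 at 5 mg/kg/day one of 0.734, and Fkbp5 in control litter 4 one of 0.72.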

How the results depend on the processing

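Apart from leaving out 1 litter, 84 recomputed counts of called glucocorticoid genes were equal to or within 1.5 times the value reported and 12 were not. The 84 include the comparisons with 0 genes called, in lung at either dose and between 10 and 5 mg/kg/day in both tissues. There 0 stayed 0 throughout, which says little about how stable a call is. All 12 others came from comparisons in which at least 1 gene was called. In liver at 5 mg/kg/day the count of 2 became 1 with no filter, with each array centred on its median, with all probe sets of a gene averaged, with only the 2 groups compared, with all 30 arrays in 1 fit and with the replicate block, and 0 without the 3 control livers high in stomach markers, an alternative chosen after seeing the data. It was 1 to 2 on leaving out each litter. In liver at 10 mg/kg/day it became 1 with probe sets averaged. For the lung change minus the liver change, the count of 1 at 5 mg/kg/day became 2 with the replicate block and 0 without the 3 control livers, and the count of 2 at 10 became 1 with median centring and 1 without those livers. Between unexposed lung and liver it was 4 to 6 on leaving out each litter.

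The replicate block, with the replicate number as a block, left 0 genes called in lung at either dose, 2 in liver at 10 mg/kg/day and 6 between the unexposed tissues; Tsc22d3 in liver at 5 mg/kg/day had an adjusted p of 0.0619, and its lung change minus liver change at 5 mg/kg/day one of 0.0359. The block also ended the liver calls of Angptl4 at 5 mg/kg/day (adjusted p = 0.0546) and of Errfi1 (0.0599), Lcn2 (0.0596), Sesn1 (0.0625) and Scnn1a (0.0552) at 10. In 12 of 15 cases a lung correlated best with the liver of its own number, a hint from the data and not from the design.

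Only uncalled values changed sign. Nr3c1 in liver at 5 mg/kg/day was -0.00138 with quantile normalization, -0.0529 with probe sets averaged, -0.0180 with array weights and -0.0504 to 0.0347 on leaving out each litter. On leaving out each litter, Serpina6 was -1.53 to 1.08 in lung at 5 mg/kg/day and -0.28 to 0.0330 in liver at 10, and Per1 in lung at 5 mg/kg/day was -0.11 to 0.0538. The cause was not tested. Low signal limits Nr3c2, Hsd11b2 and Crh, which lay near background on almost all arrays.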

Other observations

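Serpina7 was too dim in lung to be tested there. Its level was 1.95, 2.35, 2.25, 2.94 and 1.99 in lungs at 0 mg/kg/day, 3.02, 3.34, 3.06, 3.12 and 3.83 at 5, and 2.72, 3.92, 3.88, 3.73 and 4.44 at 10. The medians were 2.25, 3.12 and 3.88, and 1 of the 15 lungs lay above the 40th percentile. All lungs at 5 mg/kg/day lay above all control lungs, a description without the share of all genes that did so.

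Cyp3a11 was uncalled in lung. It was 5.07 to 6.53 in control lungs 2 to 5 and 6.93 to 8.61 in the exposed lungs other than litter 1 at 5 mg/kg/day. The lungs of litter 1 at 0 and 5 mg/kg/day, which were also high in Serpina6, had 8.44 and 11.30. With all litters the groups overlap, since the control lung at 8.44 lies among the exposed lungs. Setting these 2 lungs aside was done with the values seen, so the split is a description. The limma changes over all litters were 2.01 at 5 (unadjusted p = 0.0125, adjusted p = 0.978) and 1.94 at 10 mg/kg/day (unadjusted p = 0.0155, adjusted p = 0.594).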
